A study of Mus musculus with 6 samples.

Results

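Keratins were examined in sorted satellite cells of pharyngeal and limb muscle. The members were the 68 array probes whose platform gene symbol begins with Krt and a digit, or is Krtdap. They stand for 50 genes of the 19057 genes named by 34885 of the 45281 probes. The members were taken by name and not by a cut on their values, but this set was chosen with earlier results of these data known. Expression was measured in 6 pools of cells labelled as sorted satellite cells, the stem cells of skeletal muscle, from male C57BL/6 mice aged 8 to 10 weeks, with 3 pharyngeal muscle pools and 3 limb pools taken from gastrocnemius and quadriceps. Each pool held 150000 to 200000 cells from 10 to 30 mice, so that a value is an average over many animals, and the markers used to sort them are not stated in the labels. The labels name no treatment, and the RNA went through 1 round of amplification. The 6 arrays shared 1 chip and each group took adjacent positions, so chip position cannot be told apart from group.

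Keratins are the intermediate filament proteins of epithelial cells, and each filament is built from pairs of a type I and a type II keratin. Krt5 and Krt14 form the pair of basal cells in stratified epithelia. Cells above the basal layer switch to other pairs, Krt1 with Krt10 in the epidermis and Krt4 with Krt13 in the lining of the mouth and oesophagus. Simple epithelia use Krt8 with Krt18, Krt7 and Krt19, wounded or activated epithelia induce Krt6a, Krt6b, Krt16 and Krt17, and a large further group builds hair and its root sheath. Myogenic cells use vimentin, nestin and desmin as their main intermediate filaments.

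Unnormalized intensities had a floor of 76.1 to 82.1 units and a median of 95.4 to 106 units on the 6 arrays. The detection p gives how often negative controls were brighter, and a probe with a detection p under 0.05 is called above background here. Over all probes, 46.2% to 50.3% were above background on the pharyngeal arrays and 48.7% to 49.1% on the limb arrays. Of the 68 keratin probes, 23, 26 and 29 were above background on pharyngeal arrays 1, 2 and 3, against 5, 5 and 13 on limb arrays 1, 2 and 3. Counted as genes these were 19, 21 and 22 of 50 on the pharyngeal arrays, against 5, 5 and 13 on the limb arrays. Limb array 3 thus had more keratins above background than the other limb arrays, and apart from Krt10, Krt14 and Krt19 their detection p there was 0.0128 to 0.0449. Above background on all 3 pharyngeal arrays and on no limb array were 15 keratin probes, and 21 of the 50 genes were above background on no array. The matching shares over all probes and genes were not counted, so whether these counts are unusual cannot be told.

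**Figure D1:**
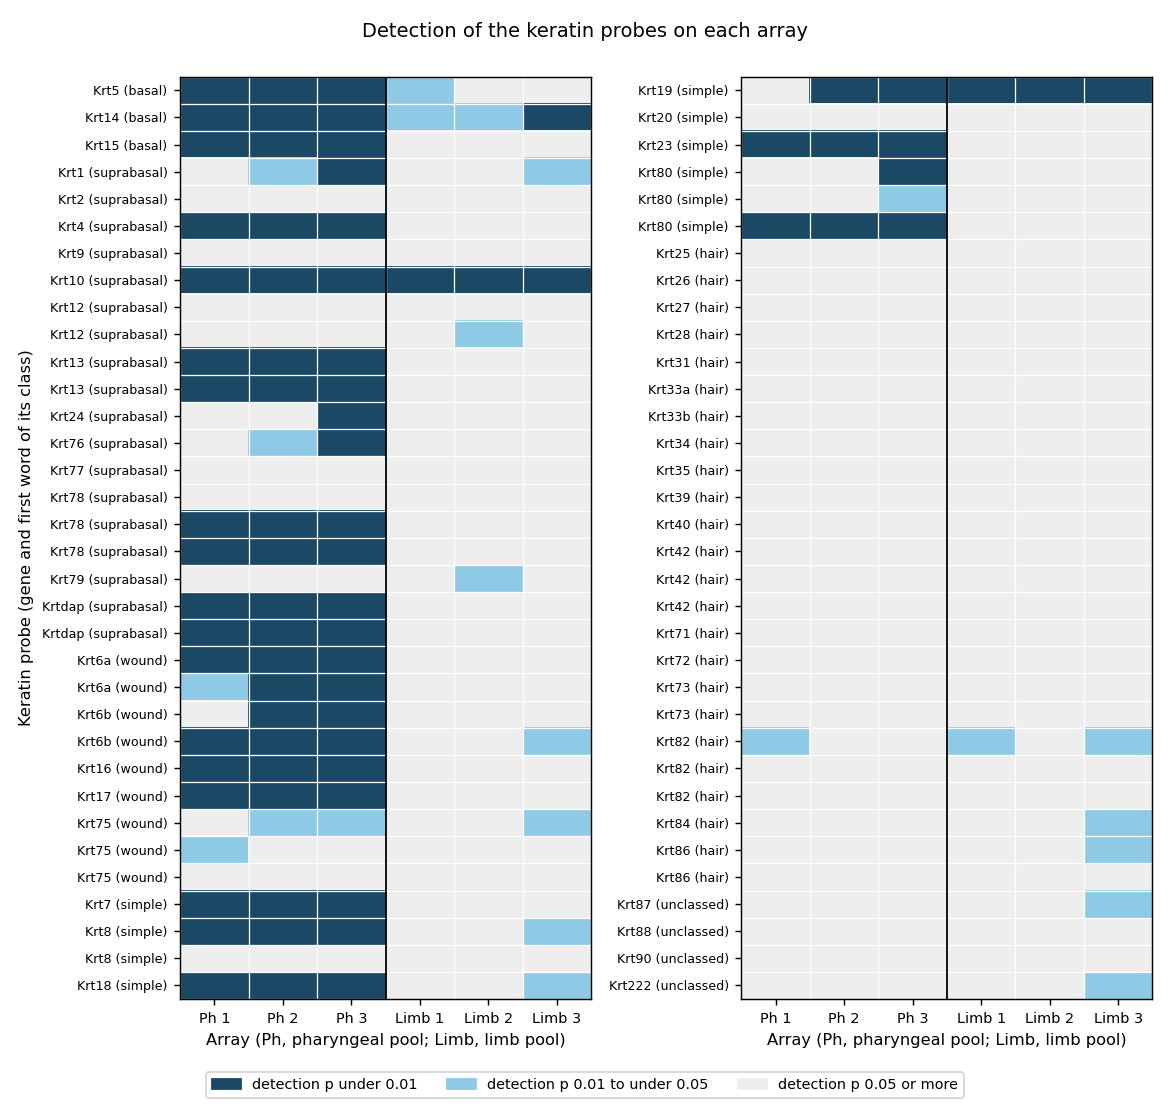
Detection of the 68 keratin probes (rows, named by gene with the first word of the class) on the 3 pharyngeal and 3 limb arrays (columns), with the colour giving the detection p. Basal, wound, simple and many suprabasal probes were above background on the pharyngeal arrays, hair keratins on almost none, and on the limb arrays Krt10, Krt14 and Krt19 were above background on each of the 3.

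Of the 50 keratin genes 21 were above background on 3 or more of the 6 arrays and were tested in a fit over 11262 genes (limma, Benjamini-Hochberg adjustment). Higher in the pharyngeal pools were 10 of them (adjusted p under 0.05) and lower were 0, also at an unadjusted p under 0.05, at which 16 were higher. Over all genes tested 3.32% were called, 1.71% higher and 1.61% lower, and at an unadjusted p 8.74% were higher and 11.6% lower. In pooled cells, a larger number of cells of a type and more RNA per cell cannot be told apart. The filter bears on these counts, because 11 of the 21 genes were above background on no limb array and had to read higher in the pharyngeal pools to enter the fit. With no filter all 50 genes were in the fit, and 5 of them were called higher and 0 lower, where 1.53% of 19057 genes were called, 0.766% in the higher direction. In that unfiltered table the 3 pharyngeal values lay above the 3 limb values for 19 keratin genes, where this held for 9.29% of all genes. The median difference over the 50 keratins was 0.04 on the log2 scale, against -0.01 over all genes. The 5 genes called without the filter were Krt5, Krt14, Krt13, Krtdap and Krt8, and the other 5 called with it were Krt15, Krt4, Krt78, Krt17 and Krt80. With 1 limb array left out the count was 5 genes for each of the 3 arrays, and these were the same 5 as without the filter. Over all genes 38 of 10875, 35 of 10815 and 31 of 10849 were then called higher without limb array 1, 2 and 3.

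**Figure D2:**
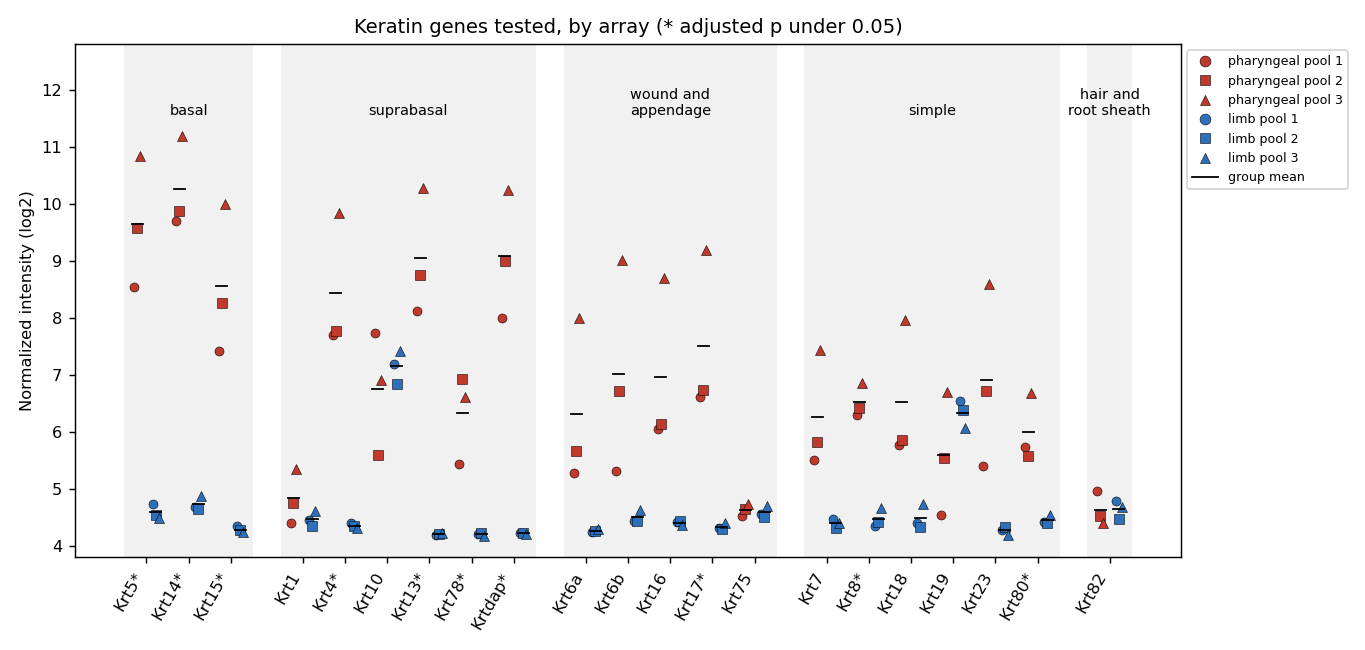
Normalized intensity (log2) of the 21 keratin genes tested, each by its brightest probe, with the pharyngeal pools in red left of the limb pools in blue and a bar at each group mean. Pharyngeal pool 3 (triangle) was highest for 18 of the 21 genes, and Krt10 and Krt19 were the genes with limb pools clearly above background.

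The basal keratins were higher in the pharyngeal pools, with 3 of 3 genes called. Krt14, the type I keratin of basal cells, read 996, 1062 and 2257 intensity units on pharyngeal arrays 1, 2 and 3, against 97.4, 101 and 103 on limb arrays 1, 2 and 3. The groups did not overlap. The detection p of Krt14 was 0 on each pharyngeal array, against 0.0353, 0.0321 and 0.00748 on the limb arrays, so that it was above background on all 6 arrays. Its normalized values averaged 10.25 ± 0.82 in pharyngeal pools and 4.73 ± 0.13 in limb pools (log2, SD, n = 3 each), a difference of 5.52 (SE 0.39, adjusted p = 0.00152). Krt5, the type II partner of Krt14, read 504, 887 and 1793 units on the pharyngeal arrays, against 98.4, 98.2 and 95.3 on the limb arrays. Its detection p was 0 on each pharyngeal array, against 0.0246, 0.0769 and 0.106 on the limb arrays. The limb values of Krt5 were thus within the range of the negative controls on 2 of 3 arrays, and the fitted difference was 5.06 (SE 0.52, adjusted p = 0.00450). Krt15, a type I keratin of basal and stem cells in stratified epithelia, read 278, 423 and 1056 units on the pharyngeal arrays, against 89.8, 89.2 and 86.6 on the limb arrays. It was above background on no limb array (detection p 0.351 to 0.817) and was at least 15.7-fold higher (adjusted p = 0.0114). Like those below, this bound compares group means and leaves out the spread between pools. The 95% interval of the fitted difference was 2.92 to 5.63 (log2). Krt5 and Krt14 passed in each of 6 fits without 1 array, whereas Krt15 did not pass without any 1 limb array (adjusted p = 0.0623 to 0.0710) or without the filter (adjusted p = 0.0553).

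The 250 bases before the start of Krt14 and Krt5, the genes with the largest differences, are shown from RefSeq (build GRCm38.p6), on the strand of the gene. Matches to TATAAA, to TGANTCA and to GGGCGG (the GC box) on either strand would be in capitals, and neither window holds any. TGANTCA takes any base at N and is wider than the AP-1 motif, which has C or G there.
Krt14, chr11:100206031-100206280, minus strand: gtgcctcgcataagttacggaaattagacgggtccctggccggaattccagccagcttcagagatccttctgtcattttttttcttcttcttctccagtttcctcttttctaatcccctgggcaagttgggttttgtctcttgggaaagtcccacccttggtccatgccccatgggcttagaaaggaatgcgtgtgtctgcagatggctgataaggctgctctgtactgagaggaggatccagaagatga
Krt5, chr15:101712906-101713155, minus strand: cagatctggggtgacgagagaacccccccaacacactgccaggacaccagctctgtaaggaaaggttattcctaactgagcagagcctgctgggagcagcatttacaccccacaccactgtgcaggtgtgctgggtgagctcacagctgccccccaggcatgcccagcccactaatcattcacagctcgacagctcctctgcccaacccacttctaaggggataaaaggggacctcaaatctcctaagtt
These letters were found in 12.4% (TATAAA), 6.75% (TGANTCA) and 32.7% (GGGCGG) of the windows of this length before all 32851 starts in the table. Among keratin genes in RefSeq order, Krt14 is followed by Krt16 and Krt17, and Krt5 comes after Krt6a.

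Among suprabasal keratins a mucosal pair and Krtdap rose, and the epidermal pair did not pass the test. All 13 genes of the list had probes, 6 were tested and 4 were called higher. Krt13, the type I keratin of internal stratified epithelia, read 395, 552 and 1248 units on the pharyngeal arrays, against 82.3, 84.7 and 85.3 on the limb arrays with its brighter probe. Its other probe read 276, 484 and 1444 units on the pharyngeal arrays, against 84.4, 85.9 and 90.0 on the limb arrays. Both probes had a detection p of 0 on each pharyngeal array and were above background on no limb array, and Krt13 was at least 21.9-fold higher (adjusted p = 0.00450). Krt4, the type II partner of Krt13, read 317, 324 and 955 units on the pharyngeal arrays, against 91.3, 92.4 and 90.1 on the limb arrays. By group means it was at least 14.4-fold higher (adjusted p = 0.0106), with a 95% interval of the fitted difference of 2.82 to 5.36 (log2). But Krt4 did not pass without any 1 limb array (adjusted p = 0.0604 to 0.0671) or without the filter (adjusted p = 0.0522). Krtdap, a small secreted protein of differentiating keratinocytes and not itself a keratin, read 372, 644 and 1214 units on the pharyngeal arrays, against 84.5, 86.6 and 84.0 on the limb arrays. Its other probe read 316, 535 and 1026 units on the pharyngeal arrays, against 84.1, 86.2 and 92.5 on the limb arrays. Krtdap was at least 22.4-fold higher (adjusted p = 0.00450). Each pharyngeal array lay above each limb array for these 3 genes.

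Krt78, a type II keratin of stratified epithelia, had its highest value on pharyngeal array 2, with 129, 213 and 170 units on the pharyngeal arrays against 83.4, 86.5 and 81.7 on the limb arrays. By its brightest probe it was at least 3.33-fold higher (adjusted p = 0.0281). A second probe was also above background on each pharyngeal array and on no limb array, but its bound was smaller, at 1.68-fold. The remaining probe was above background on no array. Krt78 did not pass without any 1 limb array (adjusted p = 0.117 to 0.134), without the filter (adjusted p = 0.0806), with a replicate block (adjusted p = 0.0616) or with an offset of 50 (adjusted p = 0.0539). With the relaxed filter (above background on 2 of 5 arrays), it did not pass without pharyngeal array 2 (adjusted p = 0.0556) or 3 (adjusted p = 0.0656). Krt10, the type I keratin of the suprabasal epidermis, read 323, 129 and 190 units on the pharyngeal arrays, against 194, 194 and 236 on the limb arrays. It was above background on all 6 arrays, the groups overlapped, and the difference was -0.40 with a 95% interval of -1.58 to 0.77 (adjusted p = 0.706). Among the 6 suprabasal genes tested, Krt10 was the one with pool 1 highest and pool 2 lowest, and without pool 2 its difference was 0.17. Krt1, the partner of Krt10, read 101, 103 and 119 units on the pharyngeal arrays, against 92.9, 92.3 and 97.7 on the limb arrays, with a difference of 0.36 (95% interval -0.27 to 0.99, adjusted p = 0.507). It was above background on 2 pharyngeal arrays and 1 limb array. Krt24 (101, 99.9 and 167 units on the pharyngeal arrays, against 85.3, 83.8 and 91.4 on the limb arrays) was above background on pharyngeal array 3 alone. Krt76, a keratin of the palate and mouth, read 102, 102 and 109 units on the pharyngeal arrays, against 87.1, 87.9 and 85.9 on the limb arrays, and was above background on pharyngeal arrays 2 and 3. Krt12, the keratin of the corneal epithelium, and Krt79 were above background on limb array 2 alone (detection p 0.0321 and 0.0470), and Krt2, Krt9 and Krt77 on no array.

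Of the suprabasal genes, Krt13, Krtdap and Krt10 are shown by the 250 bases before their starts (RefSeq, GRCm38.p6, strand of the gene), because the first 2 had the largest bounds and Krt10 did not differ beyond its spread. Capitals mark TGANTCA and TATAAA, and no matches overlap.
Krt13 (first start), chr11:100121567-100121816, minus strand: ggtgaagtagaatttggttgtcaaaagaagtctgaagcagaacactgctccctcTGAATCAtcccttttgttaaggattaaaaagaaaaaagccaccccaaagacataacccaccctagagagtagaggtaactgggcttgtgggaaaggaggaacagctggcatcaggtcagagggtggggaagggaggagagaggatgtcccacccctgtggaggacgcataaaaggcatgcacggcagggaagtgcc
Krt13 (second start), chr11:100120578-100120827, minus strand: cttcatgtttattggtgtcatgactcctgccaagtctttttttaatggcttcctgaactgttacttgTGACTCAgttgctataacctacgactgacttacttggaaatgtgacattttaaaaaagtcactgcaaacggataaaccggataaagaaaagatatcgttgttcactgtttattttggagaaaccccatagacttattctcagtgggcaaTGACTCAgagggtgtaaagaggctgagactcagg
Krtdap, chr7:30787655-30787904, plus strand: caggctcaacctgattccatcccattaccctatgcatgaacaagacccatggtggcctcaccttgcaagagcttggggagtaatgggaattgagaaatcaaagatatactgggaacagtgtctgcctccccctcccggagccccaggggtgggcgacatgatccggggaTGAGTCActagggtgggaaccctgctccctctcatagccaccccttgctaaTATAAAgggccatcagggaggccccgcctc
Krt10, chr11:99389365-99389614, minus strand: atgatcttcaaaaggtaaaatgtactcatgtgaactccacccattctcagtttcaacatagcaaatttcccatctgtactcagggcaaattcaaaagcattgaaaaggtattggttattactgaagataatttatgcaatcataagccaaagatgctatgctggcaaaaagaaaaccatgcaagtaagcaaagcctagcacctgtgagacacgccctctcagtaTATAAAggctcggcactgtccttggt
Both windows of Krt13 and that of Krtdap hold TGANTCA, at 196, 183 and 34 bases before the starts in Krt13 and 81 bases in Krtdap. The match at 196 bases is TGAATCA, which is not the AP-1 motif. TATAAA stands 30 bases before the start of Krtdap and 26 bases before that of Krt10. RefSeq windows were matched for 35 of the 50 genes (36 windows), of which 17 held TATAAA, 3 held TGANTCA and 2 held GGGCGG. The 3 windows with TGANTCA are those of Krt13 and Krtdap, and 15 of the 17 with TATAAA belong to genes too dim to be tested. Of all 36 windows 23 belong to such genes. A match is a description of the letters only.

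Among keratins of wounded epithelia and appendages 1 of 5 genes passed. Krt17, a type I keratin induced in wounds and present in appendages, read 195, 197 and 633 units on the pharyngeal arrays, against 89.0, 90.3 and 92.7 on the limb arrays. By group means it was at least 7.57-fold higher (adjusted p = 0.0443), with detection p values of 0.259 to 0.543 on the limb arrays. The 95% interval of its fitted difference was 1.68 to 4.66 (log2). Krt16 read 157, 154 and 472 units on the pharyngeal arrays, against 91.9, 95.6 and 91.6 on the limb arrays, and its difference of 2.55 did not pass (adjusted p = 0.0889). Krt6b, a type II keratin of activated epithelium, read 124, 195 and 573 units on the pharyngeal arrays, against 92.3, 95.6 and 98.1 on the limb arrays. Its pharyngeal SD of 1.87 was the widest of the 21 genes, and its difference of 2.52 had a 95% interval of 0.62 to 4.41 (adjusted p = 0.146). Krt6a read 123, 131 and 319 units on the pharyngeal arrays, against 85.2, 88.6 and 89.6 on the limb arrays. Its difference was 2.04 (95% interval 0.53 to 3.56, adjusted p = 0.142), and both of its probes were above background on each pharyngeal array and on no limb array. Krt6a and Krt6b are close paralogs, as are Krt14, Krt16 and Krt17, and the probe sequences were not used here, so that the signals within each of these sets may not be separate. The groups did not overlap for these 4 genes. Krt75, a keratin of the hair follicle, read 101 to 105 units on the pharyngeal arrays and 95.3 to 99.6 on the limb arrays, with a difference of 0.04 (95% interval -0.38 to 0.47). Krt17 did not pass without any 1 limb array (adjusted p = 0.151 to 0.173), without the filter (adjusted p = 0.129), with an offset of 50 (0.0983), with the processed table (0.130), without background subtraction (0.130) or with a replicate block (0.0656). With the relaxed filter it did not pass without pharyngeal array 2 (0.0552). Krt16 passed with an intensity trend (0.0475) and with array weights (0.0347). Krt6b passed without pharyngeal array 1 (adjusted p = 0.0388), and with the relaxed filter Krt16 (0.0139) and Krt6a (0.0411) passed without pharyngeal array 3.

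Among the genes listed here as simple epithelial keratins, which take in Krt80, 2 of 6 tested rose, Krt8 and Krt80. Krt8, the type II keratin of simple epithelia, read 172, 172 and 187 units on the pharyngeal arrays, against 90.2, 94.8 and 98.9 on the limb arrays. The 3 pharyngeal pools lay closer together for Krt8 than for the other genes called, with an SD of 0.30 on the log2 scale. It averaged 6.53 ± 0.30 in pharyngeal pools and 4.48 ± 0.17 in limb pools (log2, SD, n = 3 each), a difference of 2.05 (SE 0.22, adjusted p = 0.00506), and passed in each of 6 fits without 1 array. A second Krt8 probe was above background on no array, with 94.2 to 101 units on the pharyngeal arrays and 92.6 to 94.8 on the limb arrays, so that the probes disagree. Fitted probe by probe, where 1.31% of all kept probes were called higher, the kept pairs gave 4.84 and 4.55 for Krt13, 4.86 and 4.50 for Krtdap, and 2.12 and 1.02 for Krt78. Krt80, a type II keratin of differentiating epithelia, read 141, 128 and 174 units on the pharyngeal arrays, against 92.0, 94.3 and 96.2 on the limb arrays. It was at least 2.64-fold higher (adjusted p = 0.0439) by 1 of its 3 probes, and the other 2 were above background on pharyngeal array 3 alone. Krt80 did not pass without any 1 limb array (adjusted p = 0.152 to 0.187), without the filter (0.0954), with an offset of 50 (0.0841), with the processed table (0.0960), without background subtraction (0.0960) or with a replicate block (0.0727). With the relaxed filter it did not pass without pharyngeal array 1 (0.0509).

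Krt18, the type I partner of Krt8, read 142, 140 and 311 units on the pharyngeal arrays, against 91.4, 92.2 and 100.2 on the limb arrays. The groups did not overlap, but the difference of 2.04 (95% interval 0.73 to 3.34) did not pass (adjusted p = 0.103). Without pharyngeal pool 3 it was 1.33 and passed (adjusted p = 0.0361). Krt7, a type II keratin of glandular and simple epithelia, read 131, 138 and 240 units on the pharyngeal arrays, against 93.4, 91.1 and 92.7 on the limb arrays (difference 1.86, adjusted p = 0.0848). Krt23 read 128, 195 and 442 units on the pharyngeal arrays, against 87.6, 92.2 and 82.5 on the limb arrays (difference 2.64, adjusted p = 0.0936). Both were above background on each pharyngeal array and on no limb array. With an intensity trend Krt7 (adjusted p = 0.0490) and Krt23 (0.0497) passed, and with array weights Krt7 (0.0324), Krt23 (0.0291) and Krt18 (0.0455). With the relaxed filter Krt7 passed without pharyngeal array 3 (adjusted p = 0.0340) and Krt23 without pharyngeal array 1 (adjusted p = 0.0223). Krt19, the type I keratin of simple and glandular epithelia, had another pattern, with 105, 127 and 175 units on the pharyngeal arrays against 151, 162 and 138 on the limb arrays. Its detection p was 0.118, 0.00107 and 0 on the pharyngeal arrays and at most 0.00107 on the limb arrays, so that it was not above background on pharyngeal array 1 and was above background in every limb pool. The groups overlapped, and the difference was -0.74 with a 95% interval of -1.90 to 0.43 (adjusted p = 0.464). In RefSeq order Krt19 stands between Krt15 and Krt9, with the called genes Krt13, Krt14 and Krt17 in the same run of keratin genes. Krt20 was above background on no array.

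**Figure D3:**
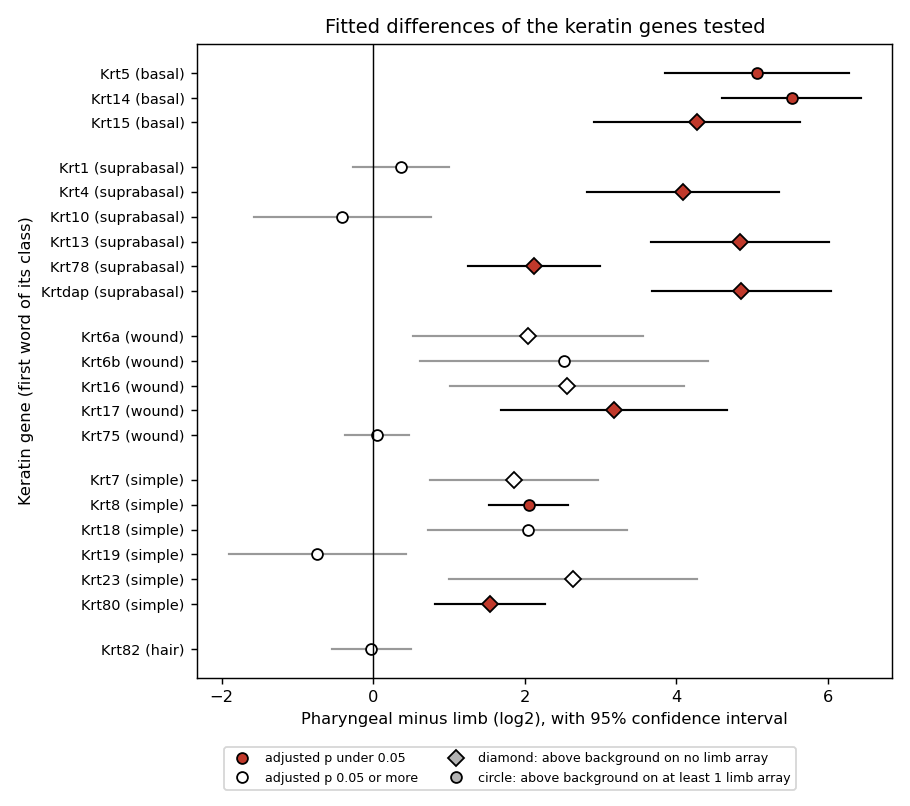
Difference between pharyngeal and limb pools (log2, pharyngeal minus limb) with its 95% confidence interval for the 21 keratin genes tested, where red marks an adjusted p under 0.05 and a diamond a gene above background on no limb array. Krt14, Krt5, Krtdap and Krt13 differed most, and the intervals of Krt1, Krt10, Krt19, Krt75 and Krt82 include 0.

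Most hair and inner root sheath keratins were at background. Of 24 genes in the list 18 had probes, 15 of these were above background on no array, and the 1 tested, Krt82, read 97.0 to 114 units on the pharyngeal arrays against 96.6 to 99.5 on the limb arrays (above background on 1 pharyngeal and 2 limb arrays) and differed by -0.02 (95% interval -0.54 to 0.50). Krt84 and Krt86 were above background on limb array 3 alone, with detection p values of 0.0427 and 0.0128. The unfiltered median difference was -0.02 for this list, against 5.06 for the 3 basal, 2.52 for the 5 wound and appendage, 1.86 for the 7 simple and 0.36 for the 13 suprabasal genes, as descriptions without a test. Of 4 genes outside the lists, Krt87 and Krt222 were above background on limb array 3 alone (detection p 0.0321 and 0.0299), and Krt88 and Krt90 on no array.

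The keratins also differed among the pharyngeal pools. Pharyngeal pool 3 was highest for 18 and pool 1 lowest for 18 of the 21 genes tested, and for 9 and 9 of the 10 genes called. Pool 3 exceeded pool 1 by 1.50 for Krt14, 2.29 for Krt5, 2.17 for Krt13, 2.15 for Krt4, 2.57 for Krt17 and 3.70 for Krt6b on the log2 scale, against 0.56 for Krt8, and pool 3 lay below pool 1 for Krt10 (-0.83). Over all genes tested the median of that difference was 0.03, but quantile normalization keeps such a median near 0. The median range over the 3 pharyngeal pools was 0.68 over all genes tested. How often pool 3 was highest or pool 1 lowest over all genes was not counted. The median SD of the 10 called keratins was 1.12 in pharyngeal pools and 0.05 in limb pools, where over all genes it was 0.36 and 0.22. Of the 10 genes, 7 were above background on no limb array. Without pharyngeal pool 3, with a gene tested once above background on 2 of the 5 remaining arrays, 13 keratin genes were called higher, against 11 without pool 1 and 8 without pool 2. Over all genes 215 of 11859 were called higher without pool 3, 215 of 11987 without pool 1 and 172 of 11914 without pool 2. This relaxed filter was chosen after the data were seen, because with 3 arrays required a gene above background in pharyngeal pools alone cannot be tested when 1 of them is left out. Under the original filter only 8 or 9 of the keratins could then be tested and 3 or 4 passed. Over all genes 139 of 10864 were then higher without pool 1, 121 of 10812 without pool 2 and 148 of 10734 without pool 3.

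Marker lists of other cells moved on the same arrays. Keratin intensity summed over the 50 genes was 3579, 4749 and 12431 on pharyngeal arrays 1, 2 and 3, against 1229, 1193 and 1268 on the limb arrays (normalized linear units). Of 12 epithelial markers other than keratins 10 had probes, 10 were above background on a pharyngeal array and 8 on a limb array (Epcam and Cldn4 on none), and the sum was 1007 to 2715 in pharyngeal and 362 to 505 in limb pools. Of the 8 tested, 2 were called higher (Cdh1 and Esrp1), where 1.71% of all genes were, and without the filter 1 was called. Cdh1 was the brightest of the 8, at 9.25, 9.13 and 10.02 (log2) on pharyngeal arrays 1, 2 and 3, against 8.13, 7.15 and 7.65 on the limb arrays. For Cldn7 and Trp63 the groups overlapped. Of 10 thyroid and parathyroid markers 8 had probes, 8 were above background on a pharyngeal array and 1 on a limb array, with sums of 1275 to 3435 against 162 to 166. Both sums were highest on pharyngeal array 3. All sums include genes at background, and the limb sums of keratins and of thyroid markers are mostly such floor values. Tg alone, at 9.97, 10.00 and 11.30 (log2) on pharyngeal arrays 1, 2 and 3, made up most of the thyroid sums there. Satellite cell markers were above background in both groups (12 of 12), with sums of 2799 to 3015 in pharyngeal and 5548 to 7958 in limb pools, and 7 of the 12 fell in the pharyngeal pools, Pax7 and Myf5 among them, where 1.61% of all genes were called lower. In the fit over all genes without the filter 4 of the 12 were called lower. Of 5 markers of mesothelium, which also contains simple keratins, 4 had probes and 2 were above background on a pharyngeal array and 1 on a limb array, with sums of 105 to 271 against 118 to 193. The part of these lists in the keratin differences was not tested. Sums of fibroblast markers (3017 to 3865 against 3829 to 5488) and endothelial markers (185 to 357 against 331 to 442) overlapped between the groups. Those of tenocyte markers (102 to 238 against 487 to 897) did not overlap (Tnmd on no pharyngeal array). Leukocyte sums (85.7 to 104 against 83.9 to 99.7, 4 of 5 markers with probes) overlapped, with Cd3e on no array and Ptprc on no limb array. Schwann cell sums (88.3 to 125 against 81.0 to 110) also overlapped, with probes for only 2 of 4 markers. Of these, Sox10 was above background on each array and S100b on 1 pharyngeal and 3 limb arrays.

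**Figure D4:**
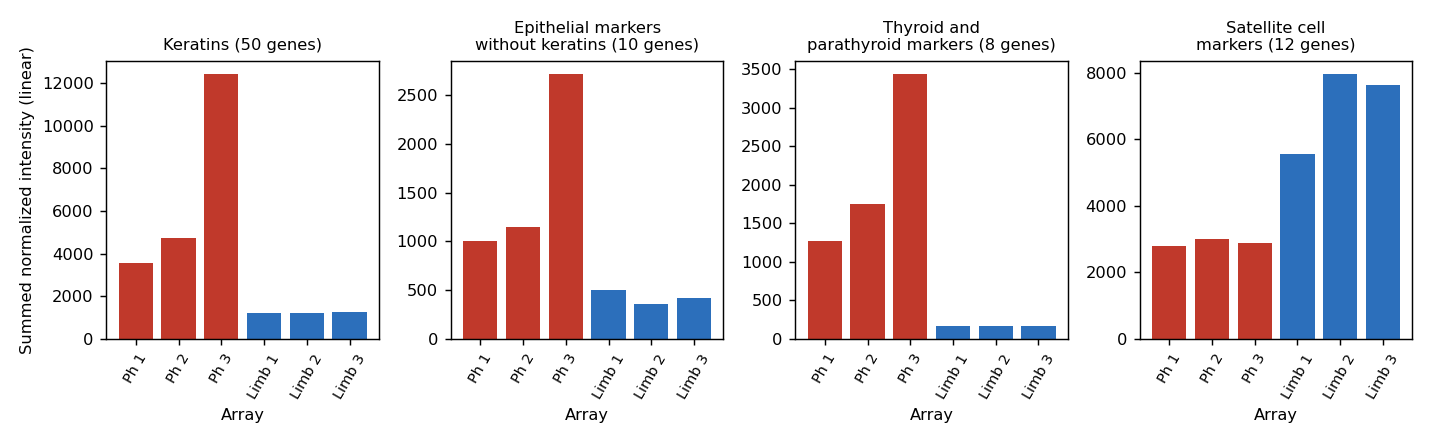
Summed normalized intensity (linear scale, bars from 0) of the 50 keratins, of 10 epithelial markers other than keratins, of 8 thyroid and parathyroid markers and of 12 satellite cell markers on each array, with pharyngeal arrays (Ph) in red left of limb arrays in blue. Keratin, epithelial and thyroid sums were highest on pharyngeal array 3, and satellite cell sums were lower on each pharyngeal array than on each limb array. Genes at background are included, and they make up most of the limb bars of keratins and thyroid markers.

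The genes that work with keratins were counted from 3 lists. Of 20 desmosome and plakin linkers, the proteins that anchor keratin filaments to the membrane, 19 had probes, 14 were tested and 0 were called in either direction (limma), although 10 were higher and 0 lower at an unadjusted p under 0.05, against 8.74% higher over all genes. With no filter 1 was called higher. Nearest to the threshold, and named after their values were seen, were Col17a1, a hemidesmosome collagen of basal cells (2.20, adjusted p = 0.0520), and the desmosomal plakophilin Pkp1 (2.28, adjusted p = 0.0737). Of the 14 tested, Dsg1b, Pkp3, Dsc2 and Evpl were above background on no limb array and entered through the pharyngeal arrays. Without the filter the median over the 19 was 0.61, against -0.01 over all genes. Of 22 epithelial transcription factors and splicing regulators 20 had probes, 10 were tested and 3 were called higher, where 1.71% of all genes were called higher. Without the filter 2 were called, and of the 3 Tfap2c and Grhl3 were above background on no limb array and entered through the pharyngeal arrays. Tfap2c, an AP-2 factor of the surface ectoderm, was at least 14.7-fold higher (adjusted p = 0.00304), with normalized values of 7.64, 8.87 and 8.92 in pharyngeal pools and 4.26, 4.44 and 4.35 in limb pools. Esrp1, a splicing regulator of epithelial cells, differed by 3.23 (adjusted p = 0.0106), and Grhl3, a grainyhead factor of the epidermal barrier, was at least 2.39-fold higher (adjusted p = 0.0395). Tfap2c passed in each fit without 1 array in which it was tested, whereas Esrp1 (adjusted p = 0.0612 to 0.0671) and Grhl3 (adjusted p = 0.145 to 0.173) did not without any 1 limb array. Esrp1, Trp63, Elf3 and Grhl2, and Pkp1 and Dsp of the linkers, also belong to the list of epithelial markers above. Trp63, the p63 factor of basal cells, had normalized values of 4.48, 4.70 and 7.62 in pharyngeal pools and 4.77, 4.49 and 4.43 in limb pools and did not pass (1.03, 95% interval -0.75 to 2.82, adjusted p = 0.506). Of 15 other intermediate filament genes 13 had probes, 8 were tested and 0 were called in either direction (limma), with 2 higher and 0 lower at an unadjusted p under 0.05. The values were 0.20 for vimentin (Vim), 0.56 for nestin (Nes) and -0.06 for desmin (Des), the muscle intermediate filament.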

How the data were processed

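The 6 arrays, 3 of pharyngeal and 3 of limb pools, were analysed. The authors deposited unnormalized probe intensity values and a detection p-value per probe and array, and a processed intensity table; GenomeStudio 2011.1 is named in the submitters' processing notes. The series' design text names background correction, but the lowest unnormalized intensity was 76.1 or more on each array, so the unnormalized table was analysed and the processed table was an alternative. The platform annotation, which can be old, named the probes. No genome build is given for it in the sources used here.

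Background was removed with normexp (offset 16, detection p-values as negative controls), followed by quantile normalization and log2, in limma 3.58.1 (R 4.3.3). The offset understates folds of dim genes. Each gene stands by its brightest kept probe (22633 probes kept). Group was the only term (lmFit, eBayes, 2-sided), and p-values were adjusted over 11262 genes. The number of arrays limits the precision, and p-values set the group difference against the spread between pools. The fit takes 1 variance per gene for both groups. For the called keratins the median SD was 1.12 in pharyngeal and 0.05 in limb pools. A gene above background on no array of a group has only a bound. It divides the bright group's mean by that of a floor, which on each array is the lowest value above background or the gene's own value if higher. It leaves out the spread between pools.

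The keratins, lists and alternatives were chosen with earlier results of these data known. Every keratin above background on an array is named; partner genes past the threshold are named by adjusted p, at most 6 a list, and others were chosen after their values were seen. Marker lists were set from textbook knowledge, and sums use each gene's brightest probe without a filter. The fit was tested on simulated data that gave each gene the same SD in both groups. That test does not cover the unequal spread of the called keratins. Correlations between same-numbered pools of the deviations from the group means lay between -0.01 and 0.00 over genes. These values show no pairing by number, but they cannot exclude it. RefSeq windows come from a table of GRCm38.p6, and positions count to the first base of the match.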

Additional observations from a re-analysis of the deposited data

How the results depend on the processing

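The keratin count of 10 stayed within 1.5 times (7 to 14) under 13 alternatives and was 5 with no filter and 1 (Krt14) when all 6 arrays had to be above background, where few keratins could be tested. With 1 array left out it was 3 to 5, and 5 to 13 with the relaxed filter, chosen after the data were seen (5 without limb array 1, 2 or 3). Krt5, Krt14, Krt13, Krtdap and Krt8 passed in every alternative in which they were tested. Over all genes the count of 374 was 593 with an intensity trend, 58 to 360 with 1 array left out and 92, 69 and 68 without limb array 1, 2 or 3 under the relaxed filter. With a replicate block it was 139, of which 7 were keratins, and Krt17, Krt78 and Krt80 did not pass. Whether the replicate numbers pair the pools cannot be told from these data. Krt10 ran from -0.89 to 0.17 with 1 array left out and was positive without pharyngeal array 2. Krt82 ran from -0.11 to 0.0905, and from -0.20 under the relaxed filter, at 0.0295 and 0.0905 without pharyngeal arrays 2 and 3 under either filter and at 0.0477 without limb array 1 under the relaxed filter. Krt75 was at -0.000886 without pharyngeal array 3 under that filter. None of these 3 genes passed, and the cause was not tested. Signals near background limit the limb values, and outliers were not sought in groups of 3.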
